A study of Homo sapiens with 47 samples.

Results

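The enzymes that make and break down retinoic acid (RA), together with the cellular receptor that takes up their substrate, were followed as 9 genes out of the 58051 listed for each library. They were chosen by name, as *STRA6*, *RDH10*, *DHRS3*, *ALDH1A1*, *ALDH1A2*, *ALDH1A3*, *CYP26A1*, *CYP26B1* and *CYP26C1*, and each symbol matched 1 Ensembl identifier. Gene positions are those of GENCODE 29 on GRCh38. The data were bulk polyA RNA-seq of the WA09 (H9) line of human embryonic stem cells (hESCs), in 47 libraries. Whole cultures gave 35 libraries in 12 groups, with 3 differentiations (r1 to r3) in each group except P9, which had 2 (r1 and r2). Fractions gave 12 libraries, with 3 differentiations each.

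The t0 group was undifferentiated hESCs in mTESR1. The 36h group, called neuromesodermal progenitor (NMP)-like, had been in N2B27 medium without vitamin A, with the WNT agonist CHIR-99021, rhFGF2, the inverse agonist of RA receptors AGN193109 and Y-27632. P1 to P10 were successive passages in the same medium and additives, labelled as mixed cultures of pre-neural progenitors (PNPs) and neural crest (NC) cells. At P5 and P8, cells were also split by selective detachment into an epithelial fraction (EPI, PNPs) and a mesenchymal fraction (MES, NC cells), each enriched rather than pure. Every group after t0 therefore lacked the usual precursor of RA in its medium and carried a block on its receptors, and no group differentiated without the block was analysed here. The model is a single line, so the spread between differentiations does not include that between donors.

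In most cells RA is made from retinol in 2 steps. STRA6 is the cell-surface receptor through which retinol bound to its plasma carrier enters some cells. RDH10 oxidizes retinol to retinaldehyde, and DHRS3 works in the opposite direction. The ALDH1A enzymes then oxidize retinaldehyde to RA, with ALDH1A2 the main one in the paraxial mesoderm of the embryo. The CYP26 enzymes oxidize RA to forms that are cleared, and CYP26A1 in the tail bud keeps RA away from the progenitors of the trunk. *CYP26A1*, *DHRS3* and *STRA6* are also known to respond to RA itself.

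The library totals ran from 13029491 to 64082859 expected counts, with a median of 47292229. The labels were checked against defining markers. *POU5F1*, a pluripotency factor, lay between 1569 and 1749 TPM (RSEM's transcript level, scaled for effective length and library) at t0. *TBXT*, a factor of NMPs and early mesoderm, was at 62.3, 477 and 493 TPM at 36h in r1, r2 and r3. In the same order, *SOX2* was at 217, 21.3 and 4.14 TPM at 36h, and *CDX2* at 21.8, 121 and 181. Several libraries of r1 stood apart from r2 and r3. At P1, *POU5F1* was still at 863 TPM in r1, against 18.7 and 5.07 in r2 and r3. At P10, the progenitor factors *SOX2* and *CDX2* were at 214 and 193 TPM in r1 and at 2.76 TPM or less in r2 and r3. In the fractions, *SOX2* ran from 178 to 254 TPM in P5 EPI and from 32.8 to 92.6 TPM in P5 MES, and *SOX10*, a neural crest factor, from 0.54 to 2.49 and from 3.69 to 24.1 TPM. At P8 the fractions overlapped in *SOX2*, which was at 301, 143 and 105 TPM in EPI and at 191, 90.4 and 30.3 in MES in r1, r2 and r3. *SOX10* did not overlap there, at 0.41, 1.08 and 1.2 TPM in EPI and 3.54, 2.99 and 8.21 in MES.

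The promoters of 4 of the 5 members called in at least 1 comparison are shown first, because RA receptors bind known DNA words near some of these genes. Those of *DHRS3*, the other one, are given by counts alone. Of the 9 members, 8 had at least 1 promoter window in the RefSeq table (GRCh38.p14), 16 windows in all. *RDH10* had none. Each window holds 300 bases, of which the 250 before the start site are printed, from 5′ to 3′ on the strand of the gene. Capitals mark matches, on either strand, to the nuclear receptor half-site AGGTCA, to its common variant AGTTCA, or to the related words GGGTCA, which is found in similar sites, and GGTTCA. The complement TGACCT, for instance, is the first of these words as read from the other strand. In *CYP26A1* the capitals instead mark 2 such words in direct repeat, along with the 5 bases between them. The printed stretches lie at chr10:93073643-93073892 (+, the second of 2 starts of *CYP26A1*), chr2:72147863-72148112 (-, *CYP26B1*), chr15:74212260-74212509 (-, *STRA6*) and chr15:58065712-58065961 (-, *ALDH1A2*).
CYP26A1: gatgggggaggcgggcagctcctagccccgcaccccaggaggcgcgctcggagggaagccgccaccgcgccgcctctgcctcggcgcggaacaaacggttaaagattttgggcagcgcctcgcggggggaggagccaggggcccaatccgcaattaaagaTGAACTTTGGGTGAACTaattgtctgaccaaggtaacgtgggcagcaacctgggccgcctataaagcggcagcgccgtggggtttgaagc
CYP26B1: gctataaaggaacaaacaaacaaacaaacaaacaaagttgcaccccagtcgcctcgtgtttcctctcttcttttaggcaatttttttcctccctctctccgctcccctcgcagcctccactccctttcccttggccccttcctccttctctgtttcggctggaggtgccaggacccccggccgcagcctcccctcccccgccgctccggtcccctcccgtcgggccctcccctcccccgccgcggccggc
STRA6: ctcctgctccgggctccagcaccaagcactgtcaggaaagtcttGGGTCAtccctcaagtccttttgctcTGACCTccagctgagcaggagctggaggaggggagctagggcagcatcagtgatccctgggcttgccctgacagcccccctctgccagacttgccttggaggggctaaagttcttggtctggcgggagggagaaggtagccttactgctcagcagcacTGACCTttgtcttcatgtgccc
ALDH1A2: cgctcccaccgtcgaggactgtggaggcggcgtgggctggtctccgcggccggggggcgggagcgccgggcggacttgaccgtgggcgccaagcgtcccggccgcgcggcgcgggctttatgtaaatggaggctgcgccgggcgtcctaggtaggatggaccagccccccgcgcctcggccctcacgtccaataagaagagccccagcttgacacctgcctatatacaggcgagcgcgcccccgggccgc

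The *CYP26A1* window held the repeat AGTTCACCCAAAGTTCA on the minus strand, from 90 to 74 bases before the start. Direct repeats of the 4 words were sought with 2 or 5 bases between them. A repeat with 5 bases between was present in 31 of all 35116 promoter windows (0.0883%), and one with 2 bases in 14 (0.0399%). Among the 16 windows of the members, 1 held such a repeat and 7 held at least a single word, against 38.6% of all windows for the single word. The printed window of *STRA6*, 1 of its 5, had 3 single words, while among its other 4 windows 1 had a single word and 3 had none. The printed windows of *CYP26B1* and *ALDH1A2* had none. Of the 3 *DHRS3* windows, 2 held 1 single word each and 0 held a repeat. These are matches of letters in a short window, and whether a receptor sits there was not measured.

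*STRA6* (ENSG00000137868, chr15:74179466-74212267, - strand), the uptake receptor, was the most abundant of the 9 members from P3 onward and the one whose change was tested with the smallest error. Its TPM was 5.95, 6.84 and 9.86 at t0 in r1, r2 and r3, and 39.96, 41.8 and 95.1 at 36h. Every 36h library lay above every t0 library. At P1 it was 84.8, 184 and 168, at P3 198, 246 and 211, at P5 126, 175 and 170, and at P8 77.3, 125 and 101. The P3 libraries held the highest values of the whole cultures and overlapped with no other whole-culture group. At P9 it was 40.5 and 54.6 TPM, and at P10 152, 86.1 and 33.1, so that the P10 libraries spanned most of the range seen after 36h.

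The comparison of 36h with t0 spans the change from hESCs to NMP-like cells and the change of medium and additives. These cannot be told apart, here or in the later comparisons with t0. Differences are given as log2 fold changes (log2FC) from edgeR's quasi-likelihood test, in which the differentiation was a block. A gene was called when its FDR lay below 1%, it differed by 2-fold or more, and its mean reached 100 normalized counts (counts scaled between libraries with TMM factors). The mean is that over the libraries compared, so a member with few counts in them could not be called there, whatever its change. By this rule 2.71% of the 21750 genes tested were called between 36h and t0, and 1 of the 9 members, *STRA6*. It rose with a log2FC of 3.02 (SE 0.39, edgeR adjusted p = 1.4e-05). Without r2 its adjusted p was 0.015 and no member was called. From 36h to P1 the log2FC of *STRA6* was 1.37 (SE 0.37, edgeR adjusted p = 0.022), which missed the 1% FDR. Without the P1 library of r1 it was 1.62, with an adjusted p of 0.0056 in the same test.

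Against t0, 4 later stages were compared after the data had been seen, all with the same 3 t0 libraries. At P1 8.79% of all genes tested were called, at P5 14.3%, at P8 15.4% and at P9 and P10 together 19.6%. *STRA6* was called in each, with log2FCs of 4.39 (SE 0.41), 4.34 (SE 0.41), 3.70 (SE 0.40) and 3.18 (SE 0.38), and edgeR adjusted p-values from 1.9e-08 to 1.7e-07. With only the P1 and t0 libraries in the fit, its adjusted p at P1 was 0.013. In all, 2 members were called at P1, 2 at P5, 3 at P8 and 3 at P9 and P10. Reads of *STRA6* could be shared with *CCDC33*, a gene on the opposite strand with 540 exon bases in common out of 7690. *CCDC33* had from 20 to 799 counts, 3.77% of the sum of both genes over all libraries. The strand setting of the counting is not given in the sources used here.

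**Figure D1:**
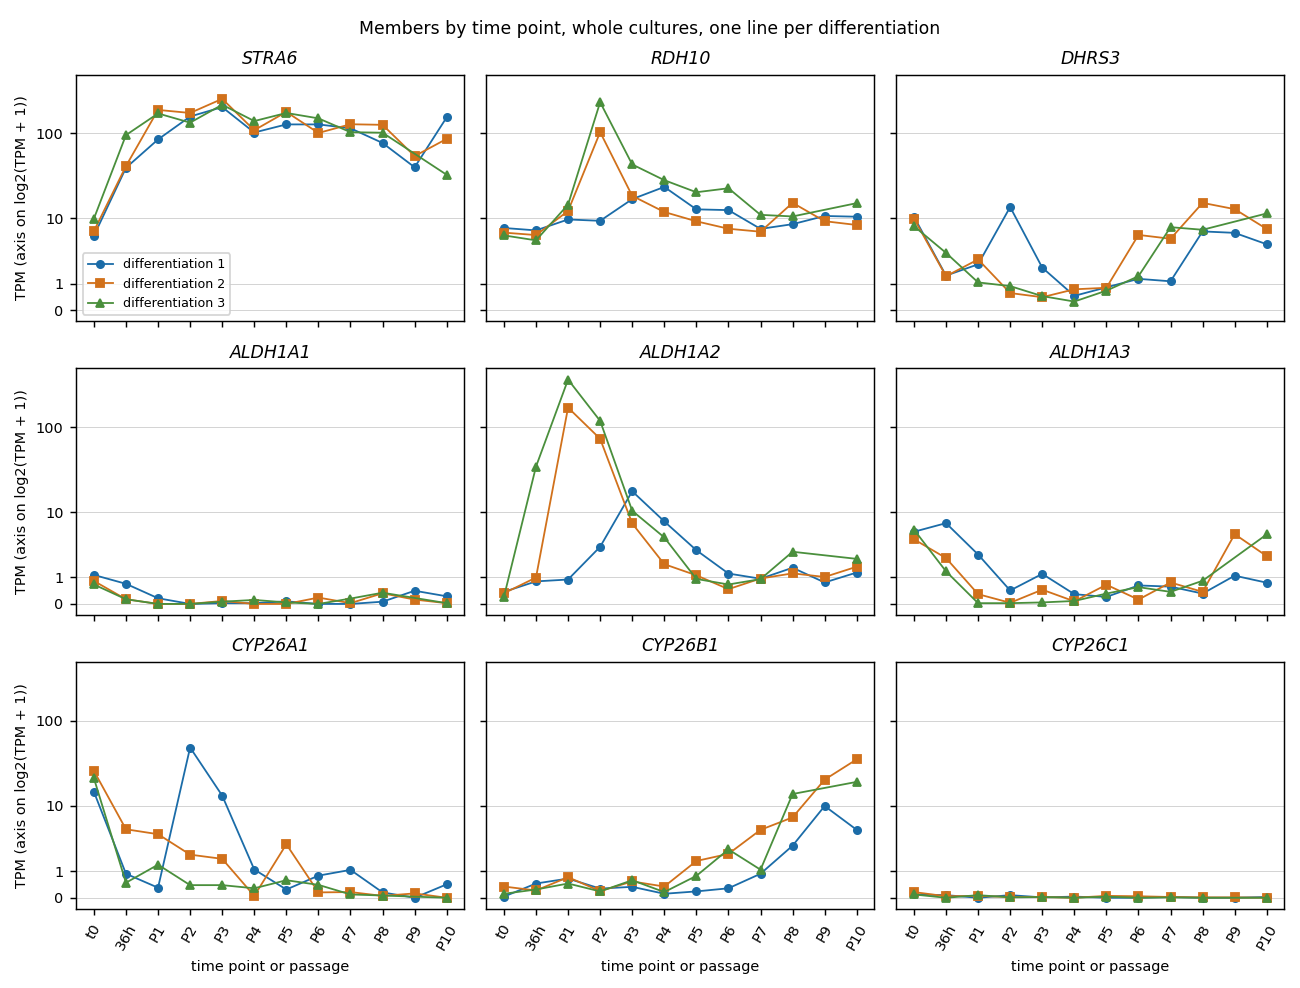
TPM of each member (vertical axis on a log2(TPM + 1) scale) in whole cultures by time point or passage, with 1 line per differentiation and no P9 library for differentiation 3. *STRA6* stayed at 33.1 TPM or more in all libraries from 36h on, the *ALDH1A2* and *RDH10* peaks at P1 and P2 belong to differentiations 2 and 3, and the P2 peaks of *CYP26A1* and *DHRS3* to differentiation 1.

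*RDH10* (ENSG00000121039), which makes retinaldehyde, had a short peak at P2 that was absent from r1. It lay between 5.17 and 7.52 TPM in the 6 libraries of t0 and 36h. At P1 it was 9.64, 12.3 and 14.7 TPM in r1, r2 and r3, and at P2 9.27, 103 and 226. The r1 library at P2 was thus below all P1 libraries while r2 and r3 were the highest of the series. At P3 it was 17.1, 18.7 and 43.7 TPM, and from P4 on it ran from 6.73 to 28.7 TPM in whole cultures. *RDH10* was not called in any comparison, except when only the P5 and t0 libraries entered the fit (log2FC 1.07, edgeR adjusted p = 0.0093). Its log2FC between P1 and P3 was 1.05 (SE 0.53, edgeR adjusted p = 0.25).

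*DHRS3* (ENSG00000162496, chr1:12567910-12617731, - strand), which returns retinaldehyde to retinol, followed a U-shaped course. It was at 10.4, 9.90 and 7.94 TPM at t0 in r1, r2 and r3, and at 1.46, 1.42 and 3.45 at 36h. At P2 it was 13.7 TPM in r1 but 0.56 and 0.87 in r2 and r3. By P5 the 3 libraries were close together, at 0.81, 0.79 and 0.66 TPM, all below those of t0. *DHRS3* fell by 3.87 on the log2 scale from t0 to P5 (SE 1.01, edgeR adjusted p = 0.0031). This call was lost without r2 or without r3, where the adjusted p was 0.035 and 0.029. It was at 6.79, 15.4 and 7.13 TPM at P8, a log2FC of 3.74 against P5 (SE 1.01). The edgeR adjusted p of 0.092 missed the threshold, while DESeq2 gave 0.003. At P8 its log2 difference from t0 was -0.13 (SE 0.89).

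*ALDH1A2* (ENSG00000128918, chr15:57953424-58497866, - strand) had the highest single level of any member and the largest differences between differentiations. It lay between 0.20 and 0.37 TPM at t0, from 10 to 13 counts per library. At 36h it was 0.80 and 0.99 TPM in r1 and r2 and 34.9 in r3. At P1 it was 0.89 TPM in r1, 167 in r2 and 347 in r3, the latter the highest value among the 9 genes. At P2 it was 3.44, 73.3 and 118 TPM, and at P3 17.9, 7.16 and 10.4. The highest value thus came at P1 in r2 and r3 and at P3 in r1, where it was lower. From P5 on *ALDH1A2* ran from 0.47 to 3.06 TPM in whole cultures, and all of those libraries were above the highest t0 library.

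*ALDH1A2* was called at P1 against t0, with a log2FC of 9.63 (SE 1.83, edgeR adjusted p = 3.1e-04). With only the P1 and t0 libraries in the fit the adjusted p was 0.071, and without r2 and without r3 it was 0.042 and 0.019. It was not called between 36h and t0 (5.27, SE 1.64, edgeR adjusted p = 0.036), nor between P1 and 36h (4.36, SE 1.39, adjusted p = 0.052), while DESeq2 called it in both. From P1 to P3 its log2FC was -3.50 (SE 1.37, edgeR adjusted p = 0.13), and without r1 it was -4.84, with an adjusted p of 0.0041. Per comparison, 1.19% of all genes tested were called between P1 and 36h and 1.09% between P3 and P1, and 0 of 9 members in either. Between P1 and P3 the 7 members other than *RDH10* and *ALDH1A2* had log2FCs from -1.15 to 0.51, with edgeR adjusted p-values of 0.45 or more. At an unadjusted p under 0.05 there were 3 and 1 members, beside 23.4% and 21.1% of all genes tested. DESeq2 called 2 and 0 members, beside 2.64% and 2.44% of all genes.

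The level of *ALDH1A2* moved with markers of paraxial mesoderm, the tissue that forms the somites, in some libraries but not in all. The list held *TBX6*, *MSGN1*, *MEOX1*, *TCF15* and *FOXC2*. Their summed TPM ran from 7.13 to 9.51 at t0, where *MSGN1* was at 0 in all 3 libraries. It was 8.83, 132 and 632 at 36h in r1, r2 and r3, and 7.6, 396 and 487 at P1. At P2 it was 308, 103 and 125, and at P3 366, 16 and 30.4. The r1 cultures thus reached their highest marker sum at P3, as they did for *ALDH1A2*, while r2 and r3 had theirs at P1 and 36h. In r3 the enzyme peaked at P1 instead, at 347 TPM beside a sum of 487, against 34.9 TPM beside 632 at 36h. The sum was 132 in r2 at 36h beside 0.99 TPM of *ALDH1A2*, and 366 in r1 at P3 beside 17.9 TPM. At P2 the order of the sums was not that of the enzyme, since r1 had 3.44 TPM of *ALDH1A2* beside a sum of 308 and r3 had 118 TPM beside 125. The markers differed among themselves in that library. *TBX6* and *MSGN1* were at 140 and 163 TPM in P2 of r1 and at 27.3 TPM or less in r2 and r3. *MEOX1*, *TCF15* and *FOXC2* were at 3.11 TPM or less in r1 and at 14.5 TPM or more in r2 and r3, in the direction of *ALDH1A2*. From P5 on the sum was 13.3 or less. In whole cultures, fewer cells of a type and less RNA per cell cannot be told apart, and the part of mesodermal cells in the *ALDH1A2* level was not tested.

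**Figure D2:**
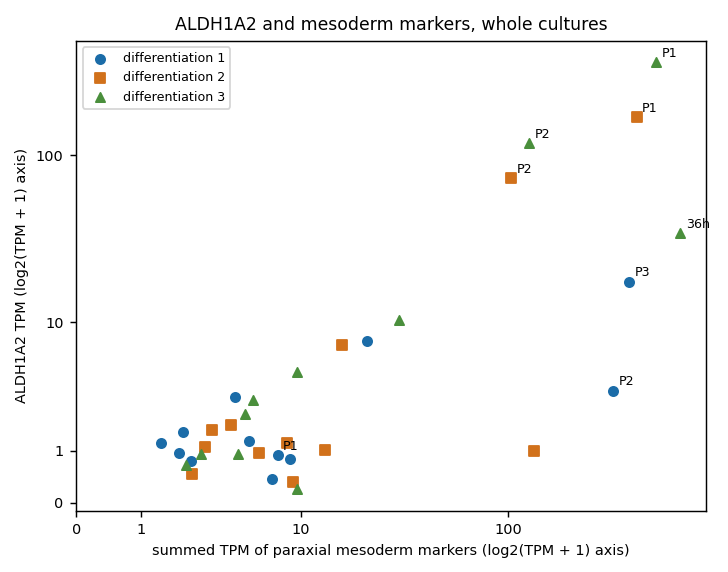
*ALDH1A2* TPM against the summed TPM of 5 paraxial mesoderm markers in 35 whole-culture libraries, both on log2(TPM + 1) axes, with colour and shape for the differentiation and names beside selected points. The P1 libraries of differentiations 2 and 3 lie at the top right, at 167 and 347 TPM, and that of differentiation 1 lies with the t0 libraries, at 0.89 TPM.

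*ALDH1A3* (ENSG00000184254, chr15:100877714-100916626, + strand) and *ALDH1A1* (ENSG00000165092, chr9:72900662-73080442, - strand), the other 2 enzymes of this step, were highest at the start. *ALDH1A3* was at 5.57, 4.4 and 5.96 TPM at t0, and at 7.23, 2.31 and 1.34 at 36h in r1, r2 and r3. From P2 to P8 it ran from 0.02 to 1.19 TPM in whole cultures. It was back at 5.17 TPM in r2 at P9 and at 5.14 in r3 at P10, but r1 stayed at 1.09 and 0.74. Its log2FC against t0 was -3.24 (SE 1.19) at P1, -3.77 (SE 1.18) at P5 and -3.46 (SE 1.2) at P8. The edgeR adjusted p-values of 0.038, 0.011 and 0.015 missed the 1% FDR, and DESeq2 called all 3. *ALDH1A3* shares 1585 of 5772 exon bases with the antisense gene *AC015712.2*, which had at most 20 counts in a library, 5.91% of the sum of both genes.

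*ALDH1A1* was near the limit of detection. It was at 1.13, 0.82 and 0.66 TPM at t0, and at 0.69 TPM or less in every other library. In 30 of 47 libraries it had 3 counts or fewer, and in 13 it had 0. The largest count was 48, so its mean stayed below the 100 normalized counts that a call required. Over the 3 t0 libraries it had 129 counts, and over the 5 libraries of P9 and P10 27. After scaling for library size the t0 level was 7.47 times that at P9 and P10 (95% interval 4.9 to 11.8, counting error only).

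The RA-clearing enzymes exchanged places over the course. *CYP26A1* (ENSG00000095596, chr10:93073475-93077890, + strand) was at 14.9, 26.4 and 21.6 TPM at t0 in r1, r2 and r3, and at 0.87, 4.97 and 0.48 at 36h, with no overlap between the groups. The log2FC was -3.85 (SE 1.42), and its edgeR adjusted p of 0.078 missed the threshold. At P2 *CYP26A1* was at 49.4 TPM in r1, its highest value, against 2.08 and 0.39 in r2 and r3, and at P3 it was 13.4, 1.76 and 0.39. *DHRS3* had its own r1 peak at P2, and *ALDH1A2* and *RDH10* lacked theirs in the same library.

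At P8 *CYP26A1* had 6, 3 and 1 counts in r1, r2 and r3, and at P9 and P10 0, 4, 14, 0 and 0. At t0 it had 558, 951 and 978. It was called lower at P8 (log2FC -8.92, SE 1.89, edgeR adjusted p = 4.2e-04) and at P9 and P10 (-9.03, SE 1.60, adjusted p = 3.8e-05). The P8 call was lost without r2 or without r3, with adjusted p-values of 0.019 and 0.02. Because the late counts were so few, the fitted fold is imprecise. From the summed counts, t0 was 275 times P8 (95% interval 149 to 574) and 216 times P9 and P10 (95% interval 136 to 365), with counting error only. Of the 18 counts at P9 and P10, 14 were from the P10 library of r1, and without it t0 was 738 times the other 4 libraries (95% interval 288 to 2710). *CYP26A1* and *CYP26C1* lie side by side on chromosome 10, and the readthrough transcript *AL358613.3* shares 750 of 2972 exon bases with *CYP26A1* and 826 of 4364 with *CYP26C1*. This transcript was not among the genes listed for the libraries, so it could not be analysed, and how its reads were counted was not tested.

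*CYP26B1* (ENSG00000003137, chr2:72129238-72148038, - strand) was at 0.71 TPM or less in all whole-culture libraries from t0 to P4. At P5 it was 0.18, 1.61 and 0.77 TPM in r1, r2 and r3, at P7 0.87, 4.88 and 1.08, and at P8 2.89, 7.14 and 14.0. At P9 it was 9.95 and 20.8, and at P10 4.88, 36.0 and 19.6. All P8 libraries lay above all P5 libraries, while P8, P9 and P10 overlapped. *CYP26B1* rose against t0 by a log2FC of 5.86 at P8 (SE 0.83, edgeR adjusted p = 4.0e-06) and of 7.15 at P9 and P10 (SE 0.85, adjusted p = 1.8e-07). The summed TPM of 7 neural crest markers was also higher at these stages than at t0. It ran from 28.9 to 31.1 at t0 and was 111, 344 and 675 at P8 in r1, r2 and r3. It was 1040 and 961 at P9, and 189, 807 and 909 at P10. The sum did not follow *CYP26B1* throughout. It was already 87.9, 297 and 435 at P4, where *CYP26B1* was at 0.34 TPM or less. At P7 it was 101, 129 and 675, beside 0.87, 4.88 and 1.08 TPM of *CYP26B1*. *SNAI2* and *TWIST1* made up most of that sum at P9 and P10, where *SOX10* was at 0.92 TPM or less. *SOX2* was at 4.88 and 5.98 TPM at P9. In the P8 fractions, *CYP26B1* had a log2FC of -0.49 for MES against EPI (SE 0.45, edgeR adjusted p = 0.7). The part of neural crest cells in the *CYP26B1* level was not tested.

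Between P5 and P8 *CYP26B1* had a log2FC of 3.8 (SE 0.74, edgeR adjusted p = 0.037), and none of the 9 members was called. Only 0.0092% of all genes tested were called in that comparison. At an unadjusted p under 0.05 there were 4 members, beside 13.3% of all genes, and DESeq2 called 2, *CYP26B1* and *DHRS3*, beside 0.713%. Between P3 and P5, where 0.0138% of genes tested were called, 0 members were called by edgeR and 0 by DESeq2, which called 0.267% of all genes. There *STRA6*, *RDH10*, *ALDH1A2* and *CYP26A1* were the members that reached that mean. At an unadjusted p under 0.05 there was 1 member, beside 7.1% of all genes. Between P8 and the last passages, where 1.25% of genes were called, 0 members were called by edgeR and 0 by DESeq2, which called 3.4% of all genes. Here *STRA6*, *RDH10*, *DHRS3*, *ALDH1A3* and *CYP26B1* reached the mean, and the other members did not. At an unadjusted p under 0.05 there were 2 members, *ALDH1A3* and *CYP26B1*, beside 26.2% of all genes.

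*CYP26C1* (ENSG00000187553, chr10:93060808-93069536, + strand) was at 0.16 TPM or less in every library and had at most 13 counts. In 39 of 47 libraries it had 3 counts or fewer, and in 14 it had 0. Its largest values were those of t0, 0.09, 0.16 and 0.09 TPM.

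**Figure D3:**
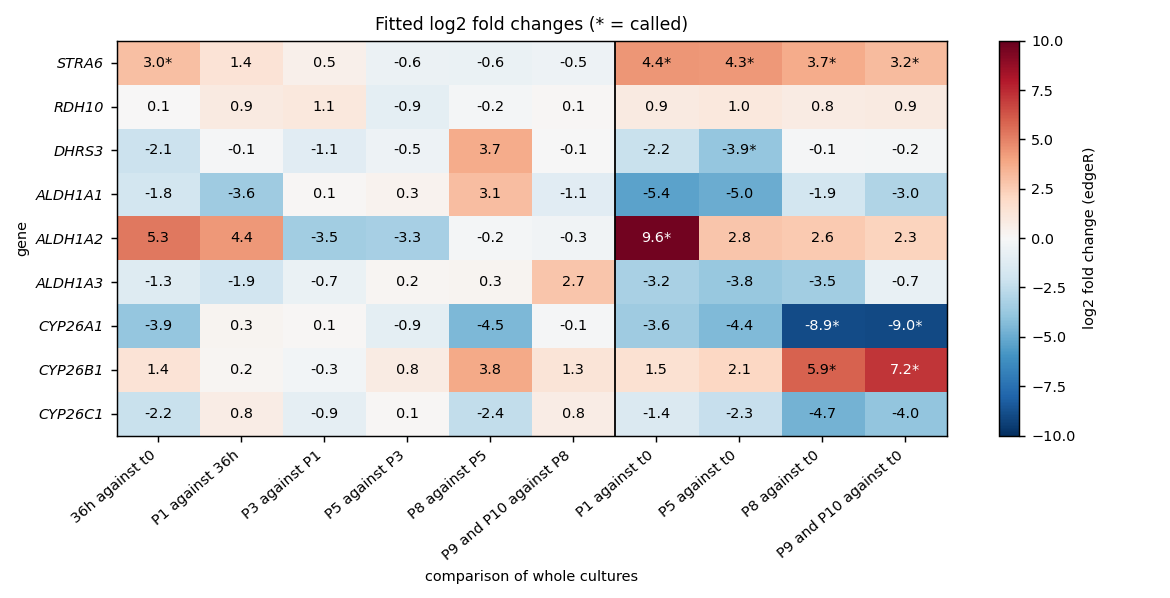
Fitted log2FC values of the 9 members (rows) in 10 comparisons of whole cultures (columns), with the colour scale from -10 to 10 and an asterisk where the gene was called. *STRA6* is called in 5 columns and *CYP26A1* and *CYP26B1* are called in opposite directions at P8 and at P9 and P10.

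The make-up of each enzyme family was compared per length, in TPM. *CYP26A1* held 98.8% ± 0.581 (SD, n = 3) of the summed *CYP26* TPM at t0, 54.6% ± 11.5 at P5 and 2.02% ± 2.53 at P8. *CYP26B1* held 0.656% ± 0.548, 44.3% ± 10.8 and 97.9% ± 2.49. The summed *CYP26* level was 21.2 ± 5.97 TPM at t0, 0.687 ± 0.471 at P4 and 20.3 ± 15.4 at P10 (SD, n = 3). The ranges of t0 and P10 overlapped, with a different member behind each sum. In the *ALDH1A* family the sum was 6.48 ± 0.821 TPM at t0, 173 ± 172 at P1 and 4.59 ± 2.61 at P10 (SD, n = 3).

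The *CYP26* sum exceeded the *ALDH1A* sum in all 3 libraries at t0, in 2 of 15 from 36h to P4, in 6 of 9 from P5 to P7 and in all 8 whole-culture libraries from P8 to P10. The 2 between 36h and P4 were 36h of r2 and P2 of r1. In the fractions it was higher in 1 of 3 libraries of P5 EPI and 1 of 3 of P5 MES, in 3 of 3 of P8 EPI and in 2 of 3 of P8 MES. TPM depends on the effective length that RSEM gives a gene in each library, which varied by 6.65 times for *ALDH1A3*, 5.30 times for *CYP26A1*, 4.55 times for *ALDH1A2* and 1.29 times for *STRA6* between the lowest and highest library. The tests used counts, which do not depend on it.

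**Figure D4:**
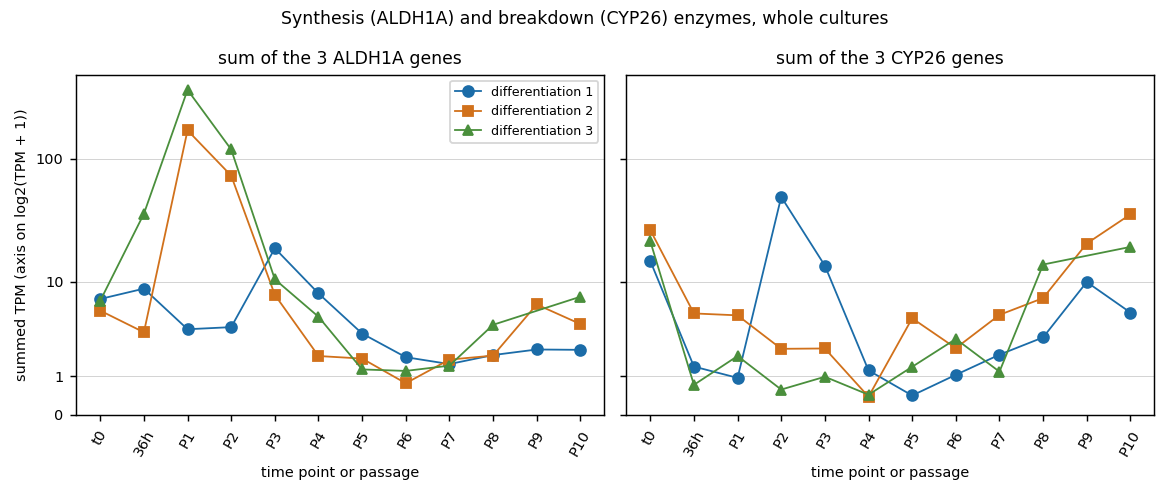
Summed TPM of the 3 *ALDH1A* genes (left) and of the 3 *CYP26* genes (right) in whole cultures by time point, on a log2(TPM + 1) axis, with 1 line per differentiation. The *ALDH1A* sum reaches 347 TPM at P1 in differentiation 3 and the *CYP26* sum 49.7 TPM at P2 in differentiation 1.

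The EPI and MES fractions ask whether these genes differ between PNPs and NC cells. *CYP26C1* did not pass the count filter there, and 0 of the 8 members tested were called at P5, at P8 or for the difference between them. The share of all 18885 genes called in this fit was 0% in each. At P5 only *RDH10* and *STRA6* reached the minimum mean that a call required. The other members tested could not be called there, whatever their change. At P8 and for the difference, *RDH10*, *DHRS3*, *CYP26B1* and *STRA6* reached that mean, and the other members tested did not. For members under that mean, the absence of a call does not show that the fractions were alike. At an unadjusted p under 0.05 there were 3, 1 and 1 members, beside 25.9%, 12% and 6.1% of all genes tested. DESeq2 called 0 members in each, beside 3.57%, 0.291% and 0.0053% of all genes. Libraries of the same differentiation deviated together within a passage, so a block for each differentiation and passage was added after the data had been seen. That fit, in edgeR, called 1.62% of all genes at P5 and 0% at P8, and again 0 members. At P5 it put 6816 of the 18885 genes under an unadjusted p of 0.05, against 4894 in the first fit. The same block in DESeq2 called 925 of the 18885 genes at P5, 191 at P8 and 57 for the difference between them. Its calls among the members are not given here.

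At P5 *STRA6* was the member with the lowest adjusted p. It was at 99.9, 137 and 137 TPM in EPI and at 179, 216 and 187 in MES, without overlap. The log2FC for MES against EPI was 0.64 (SE 0.13, edgeR adjusted p = 0.025, and 0.015 with the block in each passage). At P8 it was at 93.4, 110 and 92.1 in EPI and 99.9, 83.4 and 93.8 in MES, which overlapped. The log2 difference between the 2 splits was -0.72 (SE 0.18, edgeR adjusted p = 0.82, and 0.27 with the block in each passage). *RDH10* at P5 was at 9.19, 8.25 and 17.0 TPM in EPI and at 22.1, 14.3 and 26.6 in MES, higher in MES in 3 of 3 differentiations (log2FC 0.99, SE 0.43, edgeR adjusted p = 0.19, and 0.016 with the block in each passage).

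*DHRS3* pointed the other way, lower in MES in 3 of 3 differentiations at both passages. At P5 it was at 1.02, 0.95 and 0.32 TPM in EPI and at 0.35, 0.39 and 0.22 in MES (log2FC -1.41, SE 0.35, edgeR adjusted p = 0.048, and 0.021 with the block in each passage). At P8 it was at 8.15, 14.3 and 8.80 TPM in EPI and at 6.22, 8.67 and 5.58 in MES (log2FC -0.63, SE 0.29, edgeR adjusted p = 0.43, and 0.17 with the block in each passage). The passage outweighed the fraction for *DHRS3*, since all P5 fractions were at 1.02 TPM or less. For *CYP26B1* the P8 fractions, from 2.10 to 11.2 TPM, lay above all P5 fractions, from 0.26 to 1.83. *ALDH1A2* at P8 was at 1.3, 0.95 and 0.37 TPM in EPI and at 3.70, 1.36 and 1.13 in MES (log2FC 1.43, SE 0.46, edgeR adjusted p = 0.32, and 0.071 with the block in each passage). *ALDH1A3* had log2FCs of -1.04 (SE 0.70) at P5 and 1.12 (SE 0.65) at P8, with edgeR adjusted p-values of 0.39 and 0.52. For *CYP26A1* they were -0.89 (SE 0.81) and 1.66 (SE 1.22), with adjusted p-values of 0.54 and 0.62. *ALDH1A1* had at most 7 counts in a P5 fraction and 39 in a P8 fraction, and edgeR adjusted p-values of 0.21 and 0.88.

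**Figure D5:**
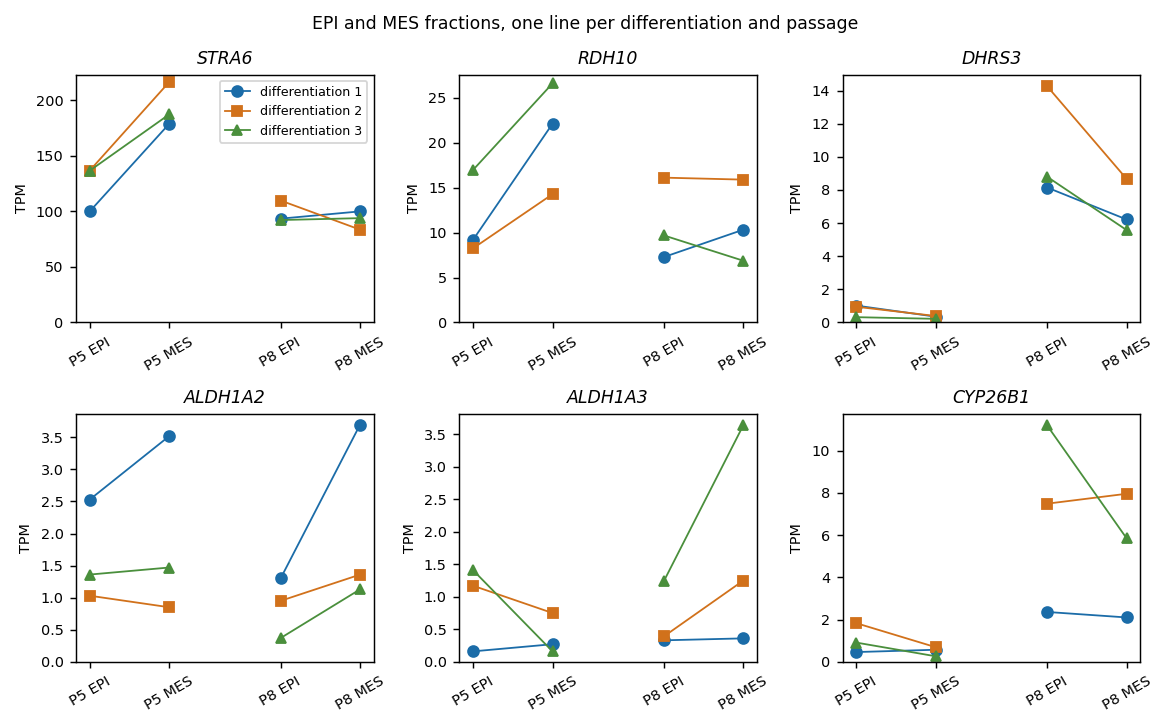
TPM of 6 members in the EPI and MES fractions of P5 and P8, with 1 line per differentiation and passage and vertical axes that start at 0. *STRA6* is higher in MES at P5, from 179 to 216 against 99.9 to 137 TPM, and *DHRS3* and *CYP26B1* are higher at P8 than at P5 in both fractions.

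Other genes of retinoid handling were counted from lists of receptors and RA-binding proteins (8 genes) and of genes known to respond to RA (12). At 36h, 1 of the receptors and RA-binding proteins and 2 of the responsive genes were called, all higher than at t0, beside 2.71% of all genes tested. They were *CRABP2*, a carrier of RA (log2FC 2.57, SE 0.24, edgeR adjusted p = 1.2e-07), and *CDX1* and *MEIS2*. Between 36h and P1, *MEIS1* was the gene of these lists that was called, also higher (log2FC 5.32, SE 1.01, edgeR adjusted p = 0.0026), beside 1.19% of all genes. This call was lost without r2, where 0 of all genes tested were called higher. It was also lost with only the P1 and 36h libraries in the fit, where 0 genes were called. In a list of carriers and further enzymes (23 genes, 18 of them tested), *RBP4*, the secreted retinol carrier that STRA6 binds, rose from P8 to P9 and P10 with a log2FC of 2.96 (SE 0.58, edgeR adjusted p = 0.0038). It was the 1 gene of that list called between these stages, beside 1.25% of all genes. The call was lost without r2, without r3 and with only the groups compared in the fit. In each of these, 0 of all genes tested were called between these stages. *RBP4* was at 1.61, 2.43 and 1.34 TPM at P8 and at 2.68, 38.4 and 28.7 at P10 in r1, r2 and r3. Against t0, 1 gene of the list was called at P5, *CYP1B1* (higher), and 1 at P8, *PNPLA4* (lower). At P9 and P10, 3 of its 18 tested genes were called, *RBP4* and *CYP1B1* higher and *PNPLA4* lower. The shares of all genes called in these comparisons were 14.3%, 15.4% and 19.6%.

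Against t0, 1, 2 and 1 of the 8 receptors and RA-binding proteins were called at P1, P5 and P8, beside 8.79%, 14.3% and 15.4% of all genes tested. At P9 and P10, 5 of the 8 were called higher and 1 lower, beside 19.6% of all genes. Of the 12 genes known to respond to RA, 6, 6, 1 and 5 were called against t0 at P1, P5, P8 and at P9 and P10. All of these were higher except *RARRES2*, which was called lower at P1, P5 and at P9 and P10 (log2FC -3.75, SE 0.76, edgeR adjusted p = 1.9e-04 at the last). The median log2FC of the 12 at P9 and P10 was 1.96, against 0.01 for all genes tested. Their summed TPM lay lower there, from 45.7 to 101 against 261 to 321 at t0. Among the receptors and RA-binding proteins, *RARB*, itself a gene that RA switches on in many cells, had the largest log2FC at P9 and P10, 6.81 (SE 1.15, edgeR adjusted p = 2.3e-05). Its TPM was 0.05 to 0.07 at t0, 3.98 and 18.1 at P9 and 0.67, 5.24 and 13.1 at P10 in r1, r2 and r3. *CRABP1*, another RA carrier, was the gene called lower (-4.04, SE 0.97, edgeR adjusted p = 9.9e-04). In the P10 library of r1, *RARB*, *RBP4*, *CYP26B1* and *ALDH1A3* all had their lowest P10 values and *STRA6* its highest, beside the *SOX2* and *CDX2* levels given above. How far that library's cell make-up bears on these genes was not tested.

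For 7 members with a group mean of at least 100 normalized counts, the genes with the most similar profile were sought over the 16 groups, among 15131 genes. Pearson correlations of mean log2 normalized counts served as the measure, as a description. For *CYP26B1* they were *HOTTIP* (0.978), *SGMS2* (0.975) and *PCOLCE2* (0.972). *STRA6* was closest to *HOXB-AS1* (0.970), *CHAMP1* and *PLXNA2*, and *ALDH1A2* to *FOXC2* (0.95), *EEF1D* and *FOXC1*. *CYP26A1* was closest to *ZNF573* (0.955), *ALDH1A3* to *ARAP2* (0.952), *DHRS3* to *SNPH* (0.942) and *RDH10* to *AHDC1* (0.926). Between members the most negative was -0.84, for *CYP26A1* with *CYP26B1*, and the most positive 0.71, for *RDH10* with *ALDH1A2*. These points share libraries and include both the fractions and the whole cultures they came from. In the order of the 16 group means, neighbours overlapped in all 15 steps for *RDH10*, *DHRS3*, *ALDH1A3*, *CYP26A1* and *CYP26B1*, and in 13 of 15 for *STRA6* and *ALDH1A2*.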

How the data were processed

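The authors trimmed reads with cutadapt, aligned them with STAR 2.5.2b and quantified genes with RSEM 1.3.0 on GRCh38, per the labels' processing notes. They deposited per-library expected counts, of which 9.33% were not whole, TPM, and effective lengths. The annotation release and strand setting are not given in the sources used here. Expected counts were rounded and tested with edgeR 4.0.16 in R 4.3.3 (quasi-likelihood test, TMM factors, filterByExpr, Benjamini-Hochberg adjustment over all genes tested, differentiation as a block), with 35 libraries in the fit of whole cultures and 12 in that of fractions. The test was first run on counts simulated with the same dispersion for all genes and no shift between differentiations. That run does not cover the spread between differentiations seen here. DESeq2 1.42.0 was an alternative. Replicates share numbers because each experiment ran through all time points, per the labels. Deviations of same-numbered libraries had a mean correlation of 0.65 between the P5 fractions, 0.78 between the P8 fractions and -0.01 between 36h and t0, over 13297 genes. The rule was to name the members in every comparison, of which the text gives those a result turns on and summarises others, and other retinoid genes by the largest change among those called, up to 3 per list and comparison. Members and lists were chosen with earlier results of these data known. No pair of replicates agreed within sampling noise. The results of the list of carriers and further enzymes at 36h and at P1 against t0 are not reported here.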

Additional observations from a re-analysis of the deposited data

How the results depend on the processing

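Recomputed log2 fold changes were followed for the 29 pairs of a member and a comparison called in the main fit or an alternative. Of these values, 274 kept their direction and their side of the threshold, 41 gained a call, 9 lost one and none reversed. Pairs that were never called were not followed, so the absence of reversals does not extend to them. Shares within the enzyme families moved by less than 1 SD when TMM-normalized counts per effective length replaced TPM. Without the replicate block the number of members called was 1 between 36h and t0, 2, 2, 3 and 3 for P1, P5, P8 and the last passages against t0, and 0 in the other comparisons, so the pairing changed no count of members. Over all genes the count without the block was 446, 1667, 2945, 3236 and 4111 for these 5, against 589, 1912, 3107, 3353 and 4271 with it. It was 37 against 271 between the last passages and P8, 129 against 238 between P3 and P1, 197 against 259 between P1 and 36h, 2 against 3 between P5 and P3, 0 against 2 between P8 and P5, and 0 in the fractions with or without it. At an FDR under 5%, 2 members were called between 36h and t0, 1 between P1 and 36h, 1 between P8 and P5, 4 at P1 and 4 at P5 against t0, beside 964, 632, 39, 2430 and 3495 of all 21750 genes. At P8 against t0, *ALDH1A3* (edgeR adjusted p = 0.015) was called as well at that FDR, beside 3705 genes. DESeq2 with the block called 2 between 36h and t0, 2 between P1 and 36h and 2 between P8 and P5, beside 881, 574 and 155 genes. Against t0 it called 3 members at P1, 4 at P5 and 4 at P8, beside 2224, 3359 and 3574 genes. With only the groups compared in the fit, 0 members were called between P1 and t0 and 5 between P5 and t0, beside 31 of 18194 and 3473 of 18558 genes, against 1912 and 3107 of 21750 with all whole cultures in the fit. With all 47 libraries in the fit, 1 was called between P1 and 36h and 4 between P5 and t0, beside 427 and 3263 of 21995 genes. Without a minimum mean, 5 were called between the last passages and t0, beside 7071 genes. Without the P1 library of r1, an alternative added after the data were seen, 2 were called between P1 and 36h, beside 809 of 21727 genes, and without the P10 library of r1, added likewise, 3 between the last passages and t0, as with it, beside 4374 of 21699. Leaving out each differentiation in turn gave 0 to 3 members for 36h against t0, 0 to 1 for P1 against 36h, 0 to 1 for P3 against P1, 0 to 1 for P8 against P5, 1 to 4 for P1 against t0 and 1 to 4 for P5 against t0. The counts over all genes ran in the same order from 83 to 891, 2 to 955, 2 to 820, 0 to 100, 459 to 2633 and 1947 to 3262. The causes of these shifts were not tested. For the interaction, the fit of the groups compared is the main fit.

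Genes with few counts, *ALDH1A1* and *CYP26C1* throughout and *CYP26A1* late, were limited by depth, with 3 counts taken as the smallest that can be shown. The spread is that between differentiations of 1 line, and P9 rests on 2 libraries.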
